A study of Mus musculus with 2 samples.

Results

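Immediate early genes are the first genes that a neuron transcribes after a burst of activity, and 37 of them, named in a list of symbols and looked up by symbol among the 55536 annotated genes, were described in the cortex of young mice. The list holds 9 factors of the AP-1 and bZIP group, 4 EGR zinc finger factors, 3 NR4A orphan nuclear receptors, 7 other nuclear regulators, 8 regulators of signalling, 2 Gadd45 genes and 4 synaptic or secreted effectors. Total RNA came from the left cerebral cortex of female B6CASTF1/J mice aged 14 days, the first-generation cross of C57BL/6J and CAST/EiJ, and was depleted of ribosomal RNA. Each of the 2 libraries, replicate 1 and replicate 2, started from 300 ng of RNA, to which a set of synthetic control RNAs (ERCC spike-ins) was added. No treatment, mutation or second group was labelled, and no stimulus or time of tissue collection is given in the sources used here, so every level is that of tissue as it was taken. The labels call the libraries biological replicates but carry 1 donor entry for both. The shared description speaks of 3 females, as does the tissue label of replicate 1, while that of replicate 2 speaks of a female, so the number of mice behind a library is not known.

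In resting neurons these genes are held at low levels with their promoters ready. Calcium entry through receptors and channels activates kinases that act on factors already bound to the DNA, above all CREB at cAMP response elements and SRF with its partners at CArG boxes, and transcription starts without new protein synthesis. The first products are mostly transcription factors, which then act on a later set of genes, together with phosphatases and other proteins that end the signal and a few proteins that act at the synapse. In cortex, sensory experience and handling both raise many of them, which is why they are used to mark recently active neurons.

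The gene totals were 33362704 expected counts in replicate 1 and 32013997 in replicate 2, and spike-ins took 0.359% of all counts in replicate 1 and 0.361% in replicate 2. All 7 excitatory neuron markers, all 8 interneuron markers and all 6 astrocyte markers stood at 1 TPM (transcripts per 1000000, a level per length) or more in both libraries, so the defining markers of cortical neurons and astrocytes were present. The libraries differed in several marker lists. Calls here are those of the exact binomial test described below. Of all genes tested there, 11.4% were called higher in replicate 1 and 8.88% lower. Myelinating oligodendrocyte markers summed to 1348 TPM in replicate 1 and 747 TPM in replicate 2. All 7 were called higher in replicate 1. Striatal markers summed to 287 TPM in replicate 1 and 179 TPM in replicate 2, also with all 7 called higher. Choroid plexus markers summed to 12.1 TPM in replicate 1 and 137 TPM in replicate 2, and erythroid markers to 846 TPM in replicate 1 and 1264 TPM in replicate 2. All 5 of either list were called lower in replicate 1. Most of the choroid plexus sum was Ttr, with 9.86 TPM in replicate 1 and 131 TPM in replicate 2. Only 2 of the 5 choroid plexus markers reached 1 TPM in both libraries. Of 5 fibroblast markers, 3 were called lower in replicate 1 and 0 higher (median log2 ratio -0.41, summed level 51.5 TPM in replicate 1 and 65.8 TPM in replicate 2). Of 6 markers of subplate, layer 6b and claustrum, 3 were called higher and 1 lower (median log2 ratio 0.36, summed level 89.4 TPM in replicate 1 and 84.6 TPM in replicate 2). No marker of these lists was at 0.

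In the RefSeq table of gene starts (GRCm38.p6), 29 of the 37 members had at least 1 window of 250 bases before to 50 after a start, 39 windows in all. Arc, Bhlhe40, Egr1, Egr3, Ier2, Nptx2, Sik1 and Trib1 had none in that table. The core TGACG of the cAMP response element (CRE), searched on both strands, lay in 25 of the 39 windows (64.1%), against 20.8% of all 32851 windows in the table, and in at least 1 window of 19 members. The complete CRE, TGACGTCA, which contains that core on both strands, lay in 10.3% of members' windows and 1.79% of all windows, and its members were Arl4d, Btg2, Dusp1 and Maff. CArG boxes lay in 10.3% of members' windows and 1.63% of all windows, every one of them in the overlapping or neighbouring starts of Egr2. The EGR sites GCGTGGGCG and GCGGGGGCG lay in 12.8% against 3.47%, TATAAA in 15.4% against 13.6%, and the AP-1 site TGANTCA in 2.56% against 7.81%, each searched on both strands. A match is a description of letters and not a site that was shown to be bound, and several windows of 1 gene share sequence.

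The windows below show these letters for 5 members that return in the results: Fos and Nr4a1, whose counts hardly differed between the libraries, Junb and Dusp1, which were higher in replicate 1, and Egr2, with its CArG box. Capitals mark the CRE core (TGACG, or CGTCA where it lies on the other strand), the complete CRE, TATAAA and the CArG box. Each runs 5′ to 3′ on the strand of its gene.
Fos, chr12:85473640-85473939, plus strand: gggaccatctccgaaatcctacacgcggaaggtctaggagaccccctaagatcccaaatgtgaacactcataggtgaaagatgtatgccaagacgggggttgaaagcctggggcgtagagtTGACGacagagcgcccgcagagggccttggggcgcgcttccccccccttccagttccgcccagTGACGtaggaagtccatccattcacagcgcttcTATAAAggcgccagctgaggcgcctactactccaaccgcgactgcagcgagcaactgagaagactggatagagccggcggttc
Nr4a1, chr15:101266596-101266895, plus strand: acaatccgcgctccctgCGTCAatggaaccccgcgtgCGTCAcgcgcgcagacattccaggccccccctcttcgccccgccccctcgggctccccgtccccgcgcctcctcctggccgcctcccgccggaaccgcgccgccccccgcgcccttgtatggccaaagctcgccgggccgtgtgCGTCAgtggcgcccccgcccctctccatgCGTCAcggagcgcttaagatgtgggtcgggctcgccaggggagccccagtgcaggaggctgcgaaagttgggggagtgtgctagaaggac
Junb, chr8:84978699-84978998, minus strand: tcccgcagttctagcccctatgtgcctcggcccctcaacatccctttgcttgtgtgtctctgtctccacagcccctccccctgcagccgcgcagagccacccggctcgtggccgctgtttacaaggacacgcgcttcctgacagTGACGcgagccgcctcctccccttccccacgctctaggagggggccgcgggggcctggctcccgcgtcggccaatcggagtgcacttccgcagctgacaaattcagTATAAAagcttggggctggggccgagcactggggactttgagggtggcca
Dusp1, chr17:26508423-26508722, minus strand: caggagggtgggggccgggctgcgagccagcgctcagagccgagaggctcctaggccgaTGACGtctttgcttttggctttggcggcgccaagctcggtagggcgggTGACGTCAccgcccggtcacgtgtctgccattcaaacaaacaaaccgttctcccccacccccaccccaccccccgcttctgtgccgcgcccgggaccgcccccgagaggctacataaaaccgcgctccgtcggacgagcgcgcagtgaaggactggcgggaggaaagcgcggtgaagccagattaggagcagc
Egr2, chr10:67537619-67537918, plus strand: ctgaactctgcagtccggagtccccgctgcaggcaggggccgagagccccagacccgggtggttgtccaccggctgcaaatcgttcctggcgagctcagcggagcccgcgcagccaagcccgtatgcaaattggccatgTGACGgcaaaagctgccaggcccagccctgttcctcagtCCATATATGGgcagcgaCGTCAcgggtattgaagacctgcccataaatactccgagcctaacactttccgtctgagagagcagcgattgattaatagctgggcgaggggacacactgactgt
The Fos window held 2 CRE cores upstream of TATAAA, the Nr4a1 window 4 CRE cores, the Junb window 1 CRE core and TATAAA, the Dusp1 window a complete CRE and 1 further CRE core, and the Egr2 window 2 CRE cores around its CArG box.

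Of the 37 members, 35 reached 1 TPM in both libraries. Their median over all 37 was 13 TPM in replicate 1 and 13.4 TPM in replicate 2, and 15 lay above the median of the 12946 detected nuclear protein-coding genes, which was 15.7 TPM in replicate 1 and 16.5 TPM in replicate 2. Together they held 0.111% (replicate 1) and 0.110% (replicate 2) of gene counts, so their total was nearly the same in both. The levels ran from Jund at the top to Atf3 at the bottom. In tissue, fewer cells that express a gene and less of its RNA per cell cannot be told apart.

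**Figure D1:**
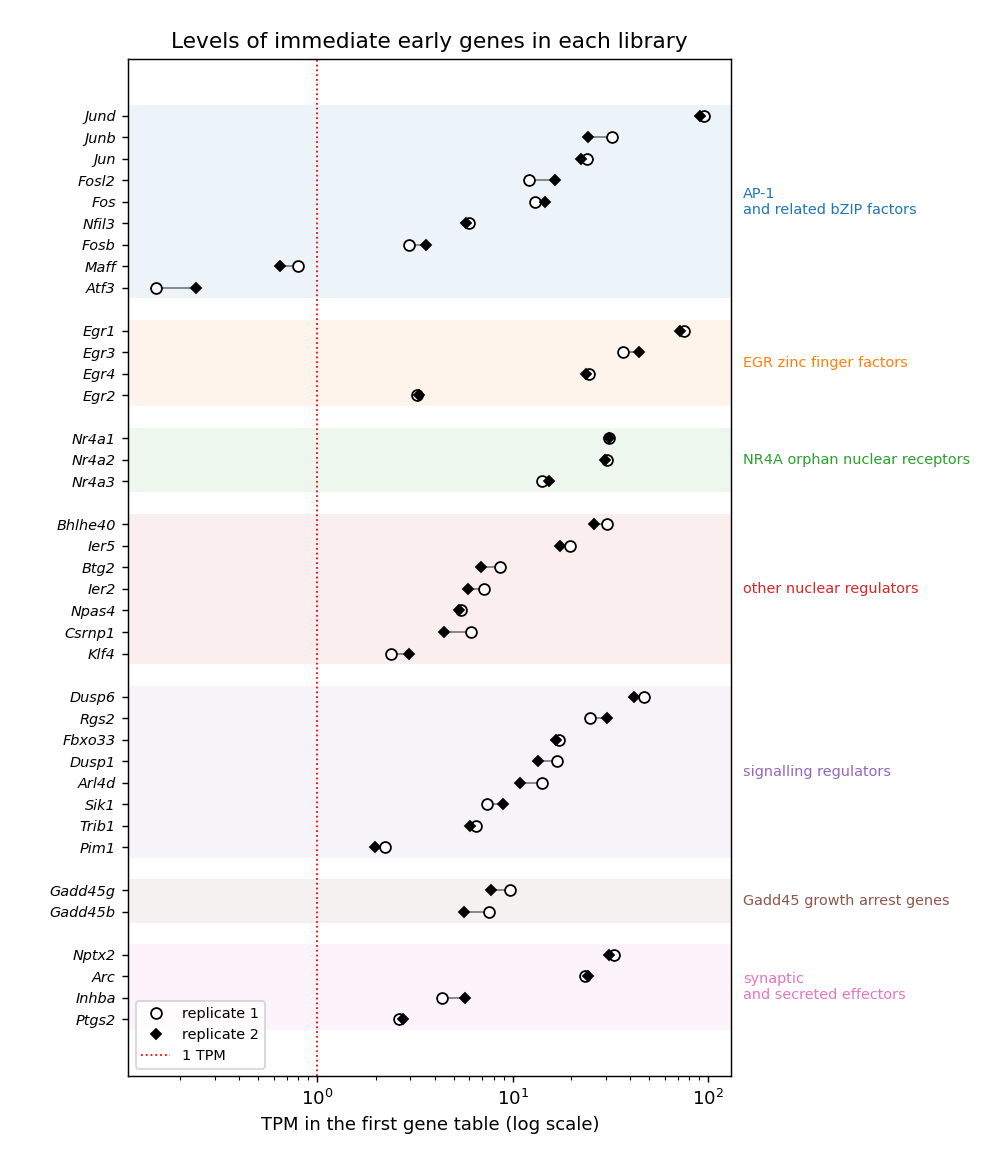
TPM of each of the 37 members in the first gene table, on a log axis, with replicate 1 as open circles and replicate 2 as filled diamonds joined by a line, ordered by role and by level. Jund (94.9 TPM in replicate 1, 91.1 TPM in replicate 2) and Egr1 (75.4 TPM in replicate 1, 71.7 TPM in replicate 2) stand highest, and Maff and Atf3 are left of the dotted line at 1 TPM.

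Among the AP-1 factors, which bind DNA as pairs of a Jun protein with a Fos, Jun or ATF protein, the Jun side was more abundant than the Fos side. Jund (chr8:70698949-70700616, mm10 as for all genes below), the Jun family member known for steady expression, had 94.9 TPM in replicate 1 and 91.1 TPM in replicate 2 (mean 93.0 ± 2.66, SD, n = 2). Junb (chr8:84974484-84978718) had 32.1 TPM in replicate 1 and 24.4 TPM in replicate 2. Jun (chr4:95049034-95052222) had 24 TPM in replicate 1 and 22.3 TPM in replicate 2. The order Jund, Junb, Jun held in both libraries, but Junb and Jun lay close together in replicate 2, and Jund exceeded Junb 2.96-fold in replicate 1 and 3.74-fold in replicate 2. Fos (chr12:85473890-85477273), the classical marker of recent activity, had 13 TPM in replicate 1 and 14.7 TPM in replicate 2. Fosl2, the Fos-related factor also called Fra-2, had 12.2 TPM in replicate 1 and 16.4 TPM in replicate 2. Fosb, whose truncated product accumulates after repeated stimulation, had 2.95 TPM in replicate 1 and 3.60 TPM in replicate 2. Fos was thus 4.41-fold above Fosb in replicate 1 and 4.09-fold in replicate 2, while Fos and Fosl2 changed places between the libraries. Nfil3, a repressor of the bZIP class, had 5.97 TPM in replicate 1 and 5.76 TPM in replicate 2. Maff, a small Maf protein without an activation domain, had 0.80 TPM in replicate 1 and 0.65 TPM in replicate 2. Atf3, a factor induced by injury and stress, had 0.15 TPM in replicate 1 and 0.24 TPM in replicate 2, from 6 counts in replicate 1 and 9 in replicate 2. These were the only members under 1 TPM, and Atf3 had too few counts to be tested.

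The EGR factors, zinc finger proteins that bind GC-rich sites, spanned a wide range. Egr1 (Zif268, chr18:34859823-34864984) had 75.4 TPM in replicate 1 and 71.7 TPM in replicate 2 (mean 73.6 ± 2.60, SD, n = 2), the second highest level in the list. Egr3 (chr14:70077203-70082614) had 36.9 TPM in replicate 1 and 44.3 TPM in replicate 2. Egr4 (chr6:85511121-85513589) had 24.6 TPM in replicate 1 and 23.8 TPM in replicate 2. Egr2, known in Schwann cells as the driver of myelination, had 3.25 TPM in replicate 1 and 3.34 TPM in replicate 2. The order Egr1, Egr3, Egr4, Egr2 was that of both libraries, with Egr1 2.04-fold above Egr3 in replicate 1 and 1.62-fold in replicate 2, and 23.2-fold above Egr2 in replicate 1 and 21.5-fold in replicate 2. Every gap in this order of gene levels was wider than the spread between the libraries. The Egr3 level includes models not annotated as protein-coding, with 49.9% of its TPM in replicate 1 and 47.5% in replicate 2. Its protein-coding models Egr3-204 and Egr3-201 had 12.9 and 5.63 TPM in replicate 1, and 15.8 and 7.52 TPM in replicate 2. Together these models lay below Egr4 in both libraries. In the second quantification described below they lay above it.

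All 3 NR4A receptors, nuclear receptors for which no hormone is established, were detected. Nr4a1 (Nur77, chr15:101254269-101274795) had 31.0 TPM in each library (mean 31.0 ± 0.0141, SD, n = 2). Nr4a2 (Nurr1, chr2:57106830-57124003), also a marker of claustrum and deep-layer neurons, had 30.3 TPM in replicate 1 and 29.6 TPM in replicate 2. Nr4a3 (Nor1) had 14.1 TPM in replicate 1 and 15.4 TPM in replicate 2. Nr4a1 and Nr4a2 stood close together and changed order in the second quantification described below, while Nr4a1 was 2.20-fold above Nr4a3 in replicate 1 and 2.02-fold in replicate 2.

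Among the other nuclear regulators, Bhlhe40 (chr6:108660629-108666925), a repressor with a basic helix-loop-helix domain that also acts in the circadian clock, had 30.4 TPM in replicate 1 and 26.1 TPM in replicate 2. Npas4, a neuronal factor induced by calcium entry, had 5.45 TPM in replicate 1 and 5.35 TPM in replicate 2 (mean 5.40 ± 0.0707, SD, n = 2). Btg2, an antiproliferative cofactor, had 8.60 TPM in replicate 1 and 6.90 TPM in replicate 2. Npas4 thus lay below Bhlhe40 and Btg2 in both libraries, and only 21.7% of detected protein-coding genes lay below it. Ier5, a small nuclear protein, averaged 18.6 ± 1.53 TPM (SD, n = 2). Ier2 averaged 6.56 ± 0.863 TPM, Csrnp1, a cysteine- and serine-rich nuclear protein, 5.29 ± 1.19 TPM, and Klf4, a Krüppel-like factor, 2.68 ± 0.410 TPM (SD, n = 2). Of these, Csrnp1 had the widest relative spread, with 6.13 TPM in replicate 1 and 4.45 TPM in replicate 2.

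The regulators of signalling were led by Dusp6 (chr10:99263231-99267489), a cytoplasmic MAP kinase phosphatase, which had 47.2 TPM in replicate 1 and 42.0 TPM in replicate 2. Rgs2 (chr1:143999338-144004161), which speeds the inactivation of G proteins, had 25 TPM in replicate 1 and 30.5 TPM in replicate 2. Dusp1, the nuclear MAP kinase phosphatase, had 16.9 TPM in replicate 1 and 13.4 TPM in replicate 2. Dusp6 exceeded Dusp1 2.80-fold in replicate 1 and 3.13-fold in replicate 2. Arl4d, a small GTPase of the ARF family, had 14.2 TPM in replicate 1 and 11 TPM in replicate 2. The other 4 spread from Fbxo33, an F-box protein, at 17.0 ± 0.552 TPM, through Sik1, a salt-inducible kinase that restrains CREB coactivators, at 8.16 ± 1.06 TPM, and Trib1, a pseudokinase, at 6.30 ± 0.332 TPM, to the serine/threonine kinase Pim1 at 2.10 ± 0.184 TPM (SD, n = 2 each).

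Gadd45 proteins respond to growth arrest and DNA damage signals and are linked to DNA demethylation in neurons. The RNAs of both listed Gadd45 genes reached 1 TPM in both libraries. Of detected protein-coding genes, 32.4% lay below Gadd45g and 25.9% below Gadd45b. Gadd45g had 9.72 TPM in replicate 1 and 7.74 TPM in replicate 2. Gadd45b had 7.59 TPM in replicate 1 and 5.65 TPM in replicate 2. Gadd45g passed the test of the library difference given below, and Gadd45b narrowly did not (adjusted p = 0.0345 and 0.0513, exact binomial test). Their log2 ratios were nearly the same, 0.39 ± 0.16 for Gadd45g and 0.39 ± 0.17 for Gadd45b (counting SE), so the calls do not set the 2 genes apart.

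Of the effectors, Nptx2 (Narp, chr5:144545902-144557478), a secreted pentraxin that clusters AMPA receptors, had 33 TPM in replicate 1 and 31.0 TPM in replicate 2. Arc (chr15:74669083-74672570), which promotes the removal of AMPA receptors and forms capsid-like particles, had 23.6 TPM in replicate 1 and 24.3 TPM in replicate 2. Inhba, the inhibin beta A subunit that makes activin A, had 4.36 TPM in replicate 1 and 5.74 TPM in replicate 2. Nptx2 was above Arc in both libraries (1.40-fold in replicate 1, 1.27-fold in replicate 2), and Arc was 4.33-fold above Npas4 in replicate 1 and 4.55-fold in replicate 2. Ptgs2, the inducible cyclooxygenase COX-2, had 2.63 TPM in replicate 1 and 2.75 TPM in replicate 2. All 4 effectors were expressed in both libraries and none differed 2-fold between them.

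The members were short genes, a feature that the list did not use. Their median span was 5.96 kb, against 26.1 kb for detected protein-coding genes, and 24 of 37 were under 10 kb, against 23.4% of detected protein-coding genes. Their largest annotated transcript had a median of 4 exons, against 9, and 29 of 37 had 5 exons or fewer, against 26.8%. Jun, Jund, Ier2 and Ier5 had a single exon. The members lay on 17 chromosomes.

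The design allows the libraries to be compared, 2 samples of the same tissue and group. Ratios are log2 of normalised CPM (counts per 1000000) plus 0.5, replicate 1 over replicate 2, with counting SEs. The two-sided exact binomial test with Benjamini-Hochberg adjustment over 18887 genes takes counting error alone and compares these libraries, so it says nothing about other mice. At an adjusted p under 0.05, 17 of the 36 tested members (47.2%) were called, against 20.3% of all genes tested. Called higher in replicate 1 were 13 (36.1%), against 11.4%, and called lower were 4 (11.1%), against 8.88%. Most members had many counts, which makes calls easier: among genes with 100 counts or more in both libraries, where 34 members fall, 26.3% were called, and 17 of the 34 members. The ratio was positive for 26 of 36 members, against 48.7% of all genes tested, and the median log2 ratio was 0.13, against -0.001 over all genes.

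The calls depend on the scaling and on the error assumed. With libraries scaled by total gene counts, 6 members were called higher and 5 lower, against 6.06% and 14.5% of all genes tested, and with ERCC scaling 7 and 5, against 6.51% and 13.6%. The members' median log2 ratio was then 0.07 with total counts and 0.08 with ERCC scaling, against -0.06 and -0.05 over all genes tested. With edgeR and an assumed dispersion of 0.01, which allows a spread between libraries beyond counting error, 0 members were called, against 0.964% of all genes, and 2 had an unadjusted p under 0.05. With an assumed dispersion of 0.04, 0 members were called, against 0.291%, and 0 had an unadjusted p under 0.05. Lists of cell markers moved the same way as the members in part. In the exact binomial test 11.4% of all genes tested were called higher. Excitatory neuron markers were called higher in 6 of 7 (summed level 3278 TPM in replicate 1 and 3054 TPM in replicate 2, median log2 ratio 0.16, none at 0). Oligodendrocyte precursor markers were called higher in 4 of 5 (median 0.16) and microglia markers in 2 of 6 (0.15). Medians were 0.06 for astrocyte, 0.05 for interneuron, 0.04 for endothelial, -0.01 for mural and -0.08 for hippocampus markers. The astrocyte list was split, with 3 of 6 called higher and 2 lower, against 11.4% and 8.88% of all genes tested. Of 8 interneuron markers 2 were called higher and 0 lower, and of 6 endothelial markers 0 and 0. Of 6 mural markers 0 were called higher and 1 lower, and of 5 hippocampus markers 1 and 1. The part of these markers in the members' ratios, and that of the oligodendrocyte, striatal, choroid plexus, erythroid, fibroblast and subplate markers above, was not tested, also for Nr4a2, which deep-layer and claustrum neurons express.

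**Figure D2:**
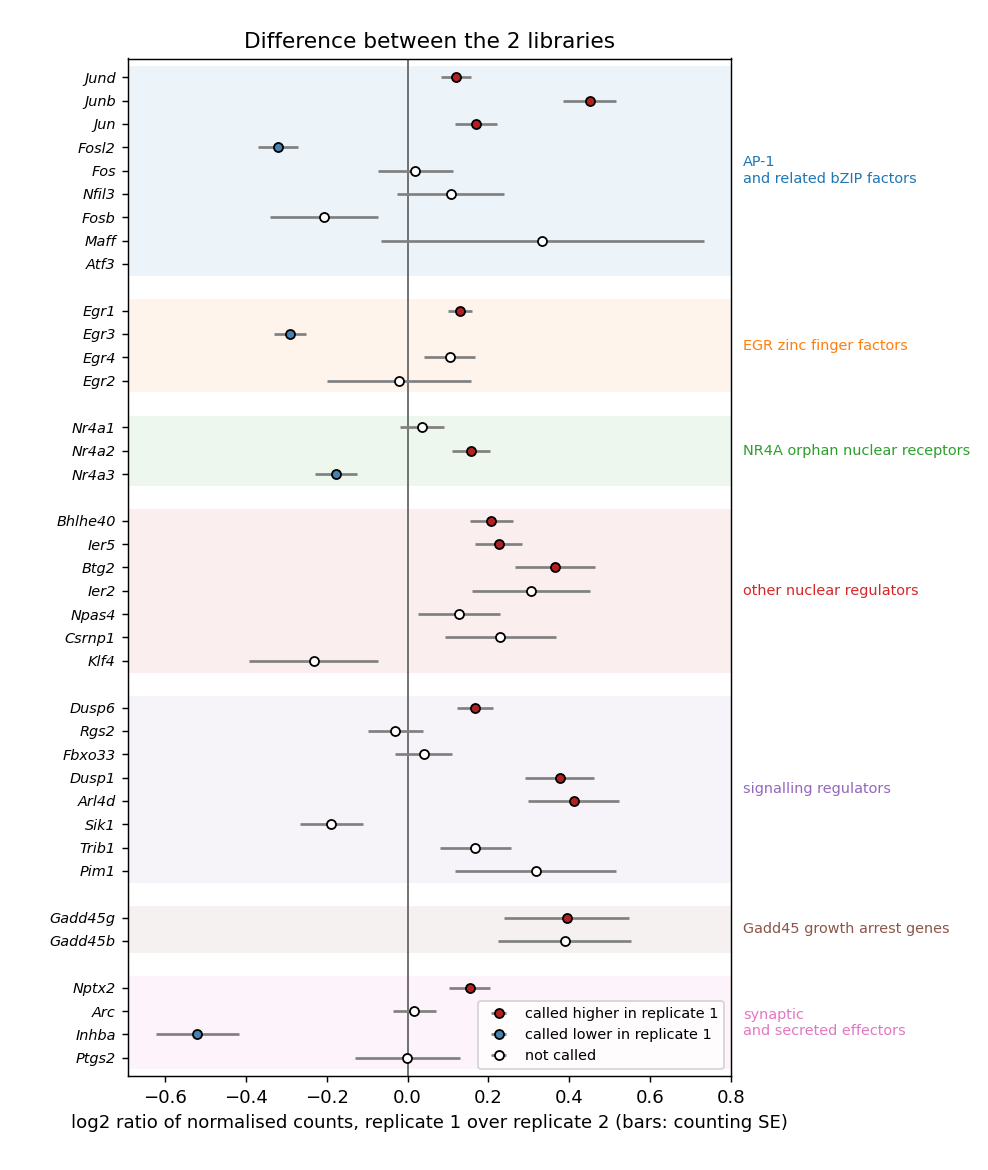
Log2 ratio of normalised counts, replicate 1 over replicate 2, for the 36 tested members by role, with bars for the counting SE. Red points were called higher in replicate 1 (13), blue points called lower (4) and open points not called (19); Junb is farthest right among the called and Inhba farthest left.

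By role, the positive calls were spread over all 7 groups and the negative ones over 4. The groups are small, and their counts stand against 11.4% of all genes tested called higher and 8.88% called lower. Of the 8 tested bZIP factors 3 were called higher and 1 lower, of the 4 EGR factors 1 and 1, and of the 3 NR4A receptors 1 and 1. Of the 7 other nuclear regulators 3 were called higher and 0 lower, of the 8 signalling regulators 3 and 0, of the 2 Gadd45 genes 1 and 0, and of the 4 effectors 1 and 1. Median log2 ratios were 0.11, 0.04, 0.04, 0.23, 0.17, 0.39 and 0.01 in that order of groups.

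Called with a difference of 25% or more, as the higher library over the lower, were 6 members (16.7%), against 7.00% of all genes tested. Junb had 1167 expected counts in replicate 1 and 849 in replicate 2, a log2 ratio of 0.45 ± 0.07 (adjusted p = 5.36e-11, exact binomial test). Arl4d had 390 counts in replicate 1 and 289 in replicate 2, a log2 ratio of 0.41 ± 0.11 (adjusted p = 0.00123, exact binomial test). Gadd45g had 201 counts in replicate 1 and 149 in replicate 2, a log2 ratio of 0.39 ± 0.16 (adjusted p = 0.0345, exact binomial test). Of these, Junb and Arl4d kept their calls under each of 6 alternatives of scaling, trend, count filter or table that keep the same test, and Gadd45g under 4 of them. Dusp1 had 661 counts in replicate 1 and 505 in replicate 2, a log2 ratio of 0.38 ± 0.09 (adjusted p = 7.75e-05, exact binomial test). Btg2 had 488 counts in replicate 1 and 375 in replicate 2, a log2 ratio of 0.37 ± 0.10 (adjusted p = 0.00135, exact binomial test). Inhba, with 332 counts in replicate 1 and 483 in replicate 2, was the only one of the 6 that was lower, with a log2 ratio of -0.52 ± 0.10 (adjusted p = 2.20e-06, exact binomial test). Dusp1, Btg2 and Inhba kept their calls and directions under the same 6 alternatives.

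Calls at smaller ratios came mostly from abundant members. Fosl2 (log2 ratio -0.32 ± 0.05), Egr3 (-0.29 ± 0.04) and Nr4a3 (-0.18 ± 0.05) were lower in replicate 1, and these kept their calls under each of the 6 alternatives. Ier5 (0.23 ± 0.06) and Bhlhe40 (0.21 ± 0.05) were higher and kept theirs. Jun (0.17 ± 0.05), Dusp6 (0.17 ± 0.05), Nr4a2 (0.16 ± 0.05), Nptx2 (0.15 ± 0.05), Egr1 (0.13 ± 0.03) and Jund (0.12 ± 0.04) were higher, and each lost its call under scaling by total gene counts. Within the EGR and NR4A families the members thus did not share a direction: Egr1 and Egr3 were called in opposite directions, and so were Nr4a2 and Nr4a3. Fos, Arc, Npas4, Nr4a1 and Rgs2 were not called, with log2 ratios of 0.02 ± 0.09, 0.02 ± 0.05, 0.13 ± 0.10, 0.04 ± 0.05 and -0.03 ± 0.07. For Fos, 479 counts in replicate 1 and 472 in replicate 2 limit what can be seen. The 14 others that were not called were Fosb, Maff, Nfil3, Egr2, Egr4, Klf4, Csrnp1, Ier2, Pim1, Trib1, Sik1, Fbxo33, Gadd45b and Ptgs2, with log2 ratios between -0.23 for Klf4 and 0.39 for Gadd45b.

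Of the members with a promoter window, 5 of the 10 that were called higher held the CRE core in it, 1 of the 3 called lower, and 12 of the 15 that were not called. Of all 32851 windows, 20.8% held it. A member counts if any of its windows holds the core, and Csrnp1, Egr2, Maff and Pim1, which were not called, have several windows. These are counts of letters in windows, without a test.

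Some members share their locus with another gene, and whether the counting used strand is not given, so their reads may not be told apart. Junb overlaps Prdx2, a peroxiredoxin on the other strand with 198 TPM in replicate 1 and 203 TPM in replicate 2. Dusp1 overlaps Ergic1 on the other strand, which had 78.2 TPM in replicate 1 and 85.2 TPM in replicate 2. In both pairs the neighbour was more abundant than the member. In counts, on which the calls rest, Prdx2 had 4272 in replicate 1 and 4123 in replicate 2, and Ergic1 3991 in replicate 1 and 4004 in replicate 2. Most counts of both members were assigned to a model that covers only part of the gene. Junb-201 (chr8:84976910-84978718, gene chr8:84974484-84978718) held 1164 counts in replicate 1 and 847 in replicate 2. Dusp1-202 (chr17:26505590-26508519, gene chr17:26505590-26562128) held 556.5 counts in replicate 1 and 457.3 in replicate 2. The part of these neighbours in the calls of Junb and Dusp1 was not tested. Jund overlaps the antisense gene Gm11175 (12.8 TPM in replicate 1, 12.3 TPM in replicate 2), Jun overlaps Junos (1.44 TPM in replicate 1, 1.63 TPM in replicate 2), and Inhba overlaps B230303A05Rik (2.36 TPM in replicate 1, 3.40 TPM in replicate 2), all on the other strand. Csrnp1 overlaps the microglial gene Cx3cr1 on the same strand, which had 17.4 TPM in each library.

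The second transcript table, quantified from the reads without the transcriptome alignment, gave the same calls. Summed per gene, the members' TPM was a median of 1.44 times that of the first table (range 1.15 to 1.70), against 1.49 for detected protein-coding genes, and no member differed 2-fold. All 17 called members were called there with the same sign, and Ier2 was called in addition (log2 ratio 0.41, adjusted p = 0.0239, exact binomial test). The sign of the ratio was the same for 32 of 36 members. Of all 20654 genes tested there, 20.2% were called either way.

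**Figure D3:**
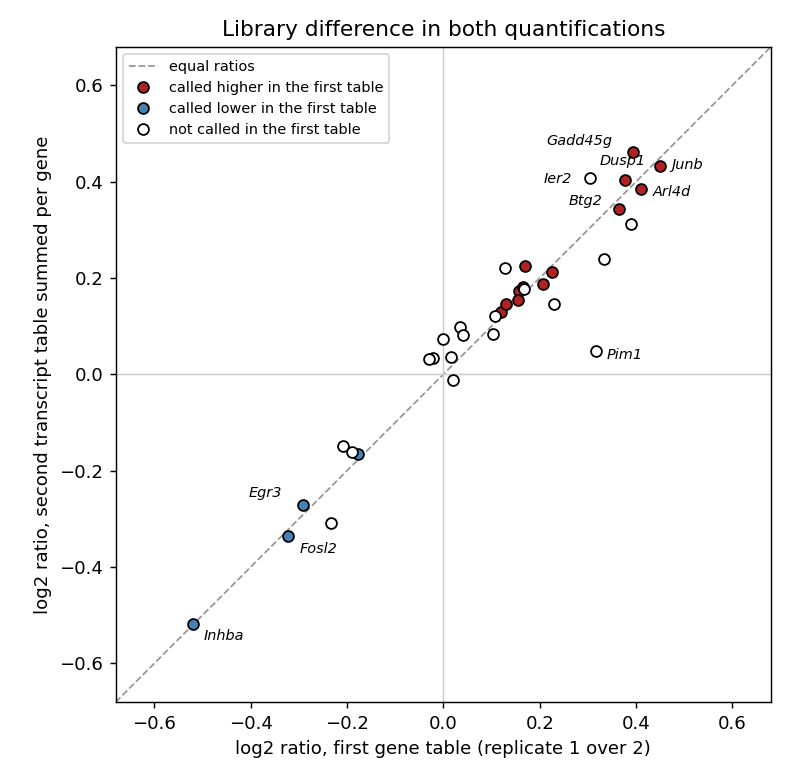
Log2 ratio of each of the 36 tested members, replicate 1 over replicate 2, in the first gene table (x axis) and in the second transcript table summed per gene (y axis), with a dashed line for equal ratios and colours for the call in the first table. Points lie close to the line from Inhba to Junb, and Pim1 (0.32 and 0.05) lies farthest from it.

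Transcript models were less certain than gene levels. The members have 116 annotated transcripts, 9 members have 1 each, and 19 members have at least 1 model that is not annotated as protein-coding, such as a retained intron, a processed transcript or a target of nonsense-mediated decay. Such models took 8.99% of the members' summed TPM in replicate 1 and 9.95% in replicate 2, against 14.1% (replicate 1) and 15.3% (replicate 2) over detected protein-coding genes. Egr3 had the highest share, 49.9% in replicate 1 and 47.5% in replicate 2. Its retained-intron model Egr3-202 alone took 34.4% in replicate 1 and 38.6% in replicate 2. The second table gave Egr3 a lower share, 24.7% in replicate 1 and 32.4% in replicate 2. Its other model outside the protein-coding class, Egr3-203, held 47.9 counts in replicate 1 and 31.6 in replicate 2 in the first table and was listed at 0 in both libraries of the second. Npas4 had 31.4% in replicate 1 and 32% in replicate 2, mostly in the retained-intron model Npas4-202. Rgs2 had 30.5% in replicate 1 and 41.7% in replicate 2. Fos had 22.4% in replicate 1 and 33.9% in replicate 2, in short processed transcripts. In the second table Npas4 had 23.5% in replicate 1 and 28.3% in replicate 2, Rgs2 45.9% in replicate 1 and 55.3% in replicate 2, and Fos 36.3% in replicate 1 and 54.1% in replicate 2. The share was thus lower in replicate 1 for these 3 genes in both tables, by little for Npas4 in the first. Fosl2 had 11.4% in replicate 1 and 15.2% in replicate 2 in the first table, and 27.8% in replicate 1 and 30.2% in replicate 2 in the second. Dusp6 and Dusp1 ran the other way, with 26.3% in replicate 1 and 20.2% in replicate 2 for Dusp6, and 18.8% in replicate 1 and 11.5% in replicate 2 for Dusp1.

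**Figure D4:**
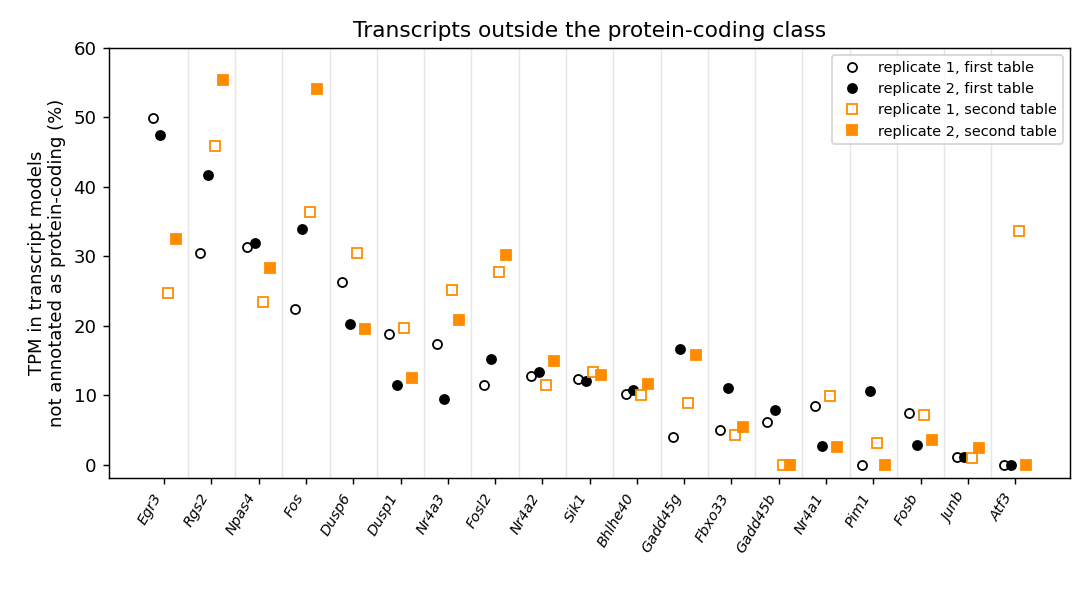
Percent of each gene's TPM in transcript models that are not annotated as protein-coding, for the 19 members that have such a model, in both libraries and both transcript tables. In the first table Egr3, Rgs2, Npas4 and Fos have the highest mean shares, with the first table above the second for Egr3 and below it for Rgs2, Fos and Fosl2 in both libraries. In the second table Fosl2 lies beside Egr3 and its mean is above that of Npas4.

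The start of Nr4a1 was assigned differently by the tables. In the first transcript table Nr4a1-201, which starts at chr15 position 101266846 within the promoter window shown above, held 1114 counts in replicate 1 and 1008 in replicate 2. Nr4a1-202, which starts upstream at position 101254269, held 253 counts in replicate 1 and 350 in replicate 2. In the second table Nr4a1-201 held 0.1 counts in replicate 1 and 0.647 in replicate 2, and Nr4a1-202 held 1369 in replicate 1 and 1320 in replicate 2. Both libraries showed the same reversal between tables, so these files do not settle which start was used, while the sum over the gene differed far less (31.0 TPM in each library in the first table, and in the second 41.2 TPM in replicate 1 and 38.8 TPM in replicate 2).

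Genes of the same pathway that are not in the list were set beside it, with lists chosen with earlier results of these data known. Their counts stand against 11.4% of all genes tested called higher and 8.88% called lower. In the lists of upstream, other immediate early and late genes, edgeR called 0 with an assumed dispersion of 0.01 or 0.04, and 0 had an unadjusted p under 0.05. Of 21 regulators upstream of the immediate early response, all reached 1 TPM in both libraries, 6 were called higher and 2 lower, and the median log2 ratio was 0.04. With total counts the calls were 2 higher and 5 lower and the median -0.02, and with ERCC scaling 2 and 4 and -0.01. Among the most abundant were Mef2c, an activity-dependent transcription factor, with 438 TPM in replicate 1 and 400 TPM in replicate 2, and the nuclear calcium kinase Camk4 with 123 TPM in replicate 1 and 113 TPM in replicate 2. None of the called ones reached 25%. Of 21 other immediate early genes, 18 reached 1 TPM in both libraries, 4 of 20 tested were called higher and 4 lower, and the median was 0.15, with 2 higher and 4 lower under either of these scalings and medians of 0.09 with total counts and 0.10 with ERCC scaling. Plk2, a kinase that limits synapse strength, had 126 TPM in replicate 1 and 113 TPM in replicate 2. Homer1, whose short form is induced by activity, had 109 TPM in replicate 1 and 116 TPM in replicate 2, and the clock gene Per1 had 44.6 TPM in replicate 1 and 42.8 TPM in replicate 2. The MAP kinase phosphatase Dusp4 was lower in replicate 1 (log2 ratio -0.37 ± 0.14, adjusted p = 0.0262, exact binomial test), the only called gene of that list past 25%.

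Of 15 late response genes, which the early factors are known to act on, 12 reached that level, 4 of 14 tested were called higher and 1 lower, and the median was 0.04, with 3 higher and 1 lower under either scaling and medians of -0.01 with total counts and -0.007 with ERCC scaling. Vgf, a secreted neuropeptide precursor, had 148 TPM in replicate 1 and 150 TPM in replicate 2. Rasgrp1, an activator of Ras, had 152 TPM in replicate 1 and 131 TPM in replicate 2, and Nrn1 (neuritin), a small membrane-bound protein of growing neurites, had 129 TPM in replicate 1 and 122 TPM in replicate 2. Plat, the tissue plasminogen activator, was higher in replicate 1 (log2 ratio 0.35 ± 0.06, adjusted p = 5.13e-08, exact binomial test) and was the only called late gene past 25%.

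Several members and their relatives also respond to glucocorticoids, so 10 target genes of that hormone were listed, of which Per1 and Sgk1 also stand among the other immediate early genes. Of these, 7 were called higher in replicate 1 and 0 lower, with a median log2 ratio of 0.28, against the same 11.4% and 8.88% of all genes. With total counts or ERCC scaling 5 were called higher and 0 lower, with medians of 0.23 in both. With edgeR and an assumed dispersion of 0.01, 0 of the 10 were called and 3 had an unadjusted p under 0.05, and with 0.04 both numbers were 0. Fkbp5, which restrains the glucocorticoid receptor, had 19.8 TPM in replicate 1 and 13.7 TPM in replicate 2 (log2 ratio 0.58 ± 0.06). Tsc22d3 (GILZ) had 52.8 TPM in replicate 1 and 40.7 TPM in replicate 2 (0.47 ± 0.05). Zbtb16, a zinc finger factor, had 32 TPM in replicate 1 and 26.6 TPM in replicate 2 (0.39 ± 0.04), and Klf9, a Krüppel-like factor, had 120 TPM in replicate 1 and 97.2 TPM in replicate 2 (0.37 ± 0.02). The 3 that were not called were Errfi1, Pdk4 and Plin4. Their relation to the members' ratios was not tested.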

How the data were processed

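Total RNA libraries (2, 1 group) were quantified by the authors against mm10 and GENCODE M21, as the deposited text files state. The first gene and transcript tables came from a transcriptome alignment and the second transcript table from the reads. Which tools, settings and strand option were used is not stated in the sources used here. Deposited expected counts are estimated reads per feature, not normalised. TPM values were scaled by the authors over all rows of a table. A further 26248 numbered rows that name no gene, with 1.49e-05% of counts in replicate 1 and 1.51e-05% in replicate 2, and spike-ins were left out of totals and tests.

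Expected counts were rounded. The 18887 genes that reached 10 counts in either library were compared by a two-sided exact binomial test with edgeR 4.0.16 TMM sizes and Benjamini-Hochberg adjustment (Python 3.11.15, SciPy 1.17.1, statsmodels 0.14.6, R 4.3.3), after a check on simulated data. A gene was called at an adjusted p under 0.05. Ratios used a pseudocount of 0.5 CPM. Counting SEs were computed from the counts without it. p-values measure the counting error of these libraries only. Alternatives were DESeq2 1.42.0 size factors, total gene counts, spike-in scaling, trend correction, no count filter and the second transcript table. Trend correction removed a trend with expression and then a trend with effective length. Further alternatives were a pseudocount of 0.1, assumed dispersions in edgeR, other TPM thresholds and each library alone.

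Values in both libraries were given for the 12 most abundant members, those under 1 TPM, those called with a difference of 25% or more and any that differed 2-fold between tables, and, outside the list, for the 3 most abundant and the called genes past 25%, up to 5. A gene that this rule covers is not reported here. Others were added after their values were seen. Members and lists were chosen with earlier results of these data known. The share called among genes with 100 counts or more, and the counts and medians of the gene lists under the alternatives, were added after seeing the data.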

Additional observations from a re-analysis of the deposited data

How the results depend on the processing

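The 13 members called higher and 4 called lower stood against 11.4% and 8.88% of all genes tested. These numbers of members stayed within 1.5 times under DESeq2 size factors, no count filter, trend correction and the second transcript table. The pseudocount does not enter the test, so a pseudocount of 0.1 could not change the calls. Under total gene counts 6 were called higher and 5 lower, against 6.06% and 14.5% of all genes tested. Under ERCC scaling 7 were called higher and 5 lower, against 6.51% and 13.6%. Under edgeR 0 were called higher and 0 lower with either assumed dispersion. Of all genes, edgeR called 0.964% either way with 0.01 and 0.291% with 0.04. Of the 17 calls, 10 remained under total counts, 11 under ERCC scaling and 16 under trend correction. The median TPM of the members, 13.2, was 19.2 in the second table and 27.2 with TPM taken over nuclear protein-coding genes only. With each library alone the number of members at 1 TPM was 35 in either, and the median TPM 13 to 13.4. The share of TPM in models not annotated as protein-coding was then 8.99% to 9.95%. Signs turned only for members that were not called, with log2 ratios near 0: under total counts Nr4a1 to -0.0223, Arc to -0.0416, Fbxo33 to -0.0175 and Fos to -0.0370. Under ERCC scaling they were -0.0156 for Nr4a1, -0.0350 for Arc, -0.0109 for Fbxo33 and -0.0305 for Fos. In the second table they were 0.0319 for Rgs2, -0.0119 for Fos, 0.0339 for Egr2 and 0.0733 for Ptgs2. With trend correction Egr2 gave 0.0286 and Ptgs2 0.0590, and with no filter Ptgs2 gave 0.000693. The cause was not tested. No paired analysis was possible because the samples form 1 group. A difference without a library cannot be computed, as 1 library would be left. Depth limits Atf3 and Maff most, with 6 counts in replicate 1 and 9 in replicate 2 for Atf3, and 32 in replicate 1 and 22 in replicate 2 for Maff.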

Other observations

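For a few members the difference between the libraries depended on whether it was read as TPM or as counts. Rgs2 had a log2 ratio of -0.29 in TPM and -0.03 in normalised counts, and the effective length of the gene in the first table was 1704 bases in replicate 1 and 1490 bases in replicate 2. Fos had -0.18 in TPM and 0.02 in counts, with effective lengths of 1717 bases in replicate 1 and 1561 bases in replicate 2. Csrnp1 had 0.46 in TPM and 0.23 in counts, with 1831 bases in replicate 1 and 2219 bases in replicate 2. A gene's effective length there is a mean over its transcripts, weighted by their levels, so that these TPM ratios move with the assignment of reads to transcripts. In the second table Csrnp1 had 5.93 TPM in replicate 1 and 6.21 TPM in replicate 2, the other order than in the first. Members with 1 transcript, such as Jun, Jund, Egr4 and Arl4d, had the same effective length in both libraries. The split of reads between the transcripts of Dusp1, Nr4a3 and Gadd45g also moved between libraries. The retained-intron model of Gadd45g took 3.91% of its TPM in replicate 1 and 16.7% in replicate 2. The gene had 201 counts in replicate 1 and 149 in replicate 2.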
